A study of Mus musculus with 4 samples.

Results

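Small leucine-rich proteoglycans (SLRPs) were followed in hair cells (HCs) and epithelial nonsensory cells (ENSCs) sorted from the newborn mouse inner ear. The members were taken from the table by gene symbol: Epyc, Ogn, Dcn, Lum, Bgn, Omd, Prelp and Fmod were listed, and 7 of the 8 had a row among the 12814 genes of the expression table, while Omd was not analysed here. All 4 populations came from newborn Atoh1/nGFP mice, kept on C57BL/6, a transgenic line in which nuclear GFP marks HCs. Sorting used CD326, a surface protein of epithelial cells, and within that epithelial gate the GFP signal split HCs, which carry it, from ENSCs, which do not, separately for the cochlea and the vestibular system. Inner ears of several mice were pooled for a sort, so no value belongs to 1 animal.

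The table held 1 column for each population, 4 in all, although the submitters describe triplicates. Each column is called a library here, and whether it holds 1 replicate or combines several is not given in the sources used here. There was therefore no replicate error for any value, no test between populations could be made, and every comparison below is between 2 libraries. In sorted bulk material, fewer cells expressing a gene and less RNA of that gene per cell cannot be told apart. Values are quantile-normalized read signals with a floor of 20, and sequencing depth is unknown because the normalization gave all columns the same sum. Within each library the weakest signals, up to 24.25 in cochlear HCs, 22.75 in cochlear ENSCs, 30.5 in vestibular HCs and the floor itself in vestibular ENSCs, followed the order of the other libraries. Signals inside that range are called near the floor here, and a fold against such a signal is given as a lower bound against the top of the range. The markers matched the labels, since 10 of 10 HC markers exceeded their ENSC signal at least 3-fold in the HCs of either organ, and Epcam, which encodes CD326, had a signal between 1016.75 and 7511 in every library.

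SLRPs are secreted proteins of the extracellular matrix whose core is built of leucine-rich repeats and often carries chondroitin, dermatan or keratan sulfate chains. Most of them bind collagen and set the diameter and spacing of its fibrils, and decorin and biglycan also bind growth factors of the TGF-beta family. In the inner ear such matrix lies beneath the sensory epithelium, in the surrounding cartilage and in the acellular gels over the sensory cells, which are secreted by the nonsensory epithelium.

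Most members lie in groups of neighbouring genes, given here in mouse build mm9 (NCBIM37). Dcn (decorin, chr10:96942245-96980777, 8 exons), Lum (lumican, chr10:97028135-97035337, 3 exons), Kera (keratocan) and Epyc (epiphycan, chr10:97106702-97145088, 8 exons) follow each other on the plus strand within 202844 bp. Ogn (osteoglycin or mimecan, chr13:49703440-49719869, 7 exons, plus strand) lies beyond Omd (osteomodulin, chr13:49678135-49687978) and Aspn (asporin). Prelp (chr1:135806881-135817991, 3 exons, minus strand) and Fmod (fibromodulin, chr1:135933831-135944854, 3 exons, plus strand) share a stretch of 137974 bp, and Bgn (biglycan, chrX:70728941-70741272, 9 exons, plus strand) stands alone. Exons of Epyc overlap the opposite-strand gene model Gm10754 and those of Prelp overlap Gm15851, and whether reads were counted by strand is not given in the sources used here, so a share of reads from these models cannot be told apart from the members' own.

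The 250 bases upstream of the start are shown for 4 genes of the chromosome 10 and chromosome 1 groups, because these groups differed in opposite directions between cochlear and vestibular ENSCs. The sequences are RefSeq promoters, annotated on GRCm38.p6 and placed in mm9 by an exact match, for Epyc at chr10:97106452-97106701 (plus strand), Kera at chr10:97069589-97069838 (plus), Prelp at chr1:135817979-135818228 (minus) and Fmod at chr1:135933581-135933830 (plus). Capitals mark AACAAT on either strand (ATTGTT on the strand shown), a core of the sites bound by SOX transcription factors.
Epyc: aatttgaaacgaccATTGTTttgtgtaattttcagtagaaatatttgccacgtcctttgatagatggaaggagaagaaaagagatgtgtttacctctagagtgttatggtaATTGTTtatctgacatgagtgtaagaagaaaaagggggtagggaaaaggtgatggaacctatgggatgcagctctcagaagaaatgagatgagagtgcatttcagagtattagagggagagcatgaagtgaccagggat
Kera: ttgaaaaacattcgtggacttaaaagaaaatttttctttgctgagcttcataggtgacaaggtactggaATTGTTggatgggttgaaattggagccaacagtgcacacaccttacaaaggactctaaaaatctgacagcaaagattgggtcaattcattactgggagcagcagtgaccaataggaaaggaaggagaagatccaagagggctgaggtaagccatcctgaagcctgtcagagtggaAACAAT
Prelp: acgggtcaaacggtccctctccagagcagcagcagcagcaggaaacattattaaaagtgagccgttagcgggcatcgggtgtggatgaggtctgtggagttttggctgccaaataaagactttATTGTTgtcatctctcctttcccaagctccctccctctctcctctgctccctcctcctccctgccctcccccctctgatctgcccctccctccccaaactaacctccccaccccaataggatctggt
Fmod: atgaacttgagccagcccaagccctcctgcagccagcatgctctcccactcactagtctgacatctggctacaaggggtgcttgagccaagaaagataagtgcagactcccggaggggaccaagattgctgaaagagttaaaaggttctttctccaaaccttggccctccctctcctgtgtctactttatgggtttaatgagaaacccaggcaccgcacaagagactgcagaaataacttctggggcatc
AACAAT occurred 2 times upstream of Epyc, at positions -236 and -139 relative to the start, 2 times upstream of Kera and 1 time upstream of Prelp, and it was absent from the Fmod window. These letters occur in 9.35% of the 32536 RefSeq promoter windows of this length, and a match describes the sequence only. Because the 4 windows were chosen by the ENSC differences, their matches are no measure of enrichment. Of the 8 listed members 6 had a RefSeq promoter, and 2 of these, Epyc and Prelp, held AACAAT upstream. Dcn and Lum had no RefSeq promoter entry. Epyc had a further start, whose upstream window (chr10:97109487-97109736, plus strand, not shown) held AACAAT 3 times, at -228, -208 and -201. TATAAA, present in 12.3% of all windows, occurred 2 times upstream of Ogn, and GGGCGG, the GC box present in 33.0%, occurred 3 times upstream of Bgn.

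**Figure D1:**
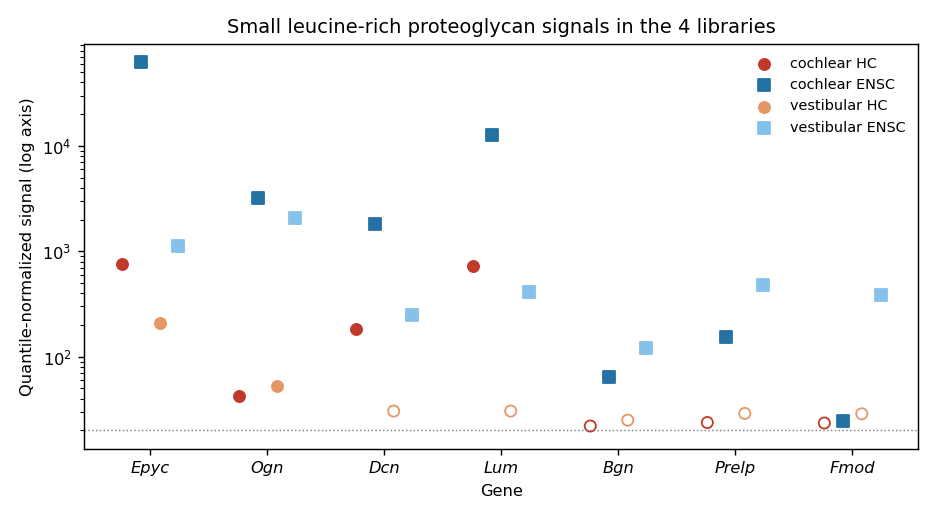
Quantile-normalized signal (log axis) of the 7 members in the 4 libraries, 1 point per library with no replicate error; open symbols are signals near the floor and the dotted line is the floor of 20. In 6 of the 7 genes both ENSC libraries (squares) lie well above the HC library (circles) of their own organ, and Epyc in cochlear ENSCs, at 62028.5, is the highest point.

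The first comparison asked which members differed between HCs and ENSCs of the cochlea. None was higher in HCs, and 5 of the 7, Epyc, Ogn, Dcn, Lum and Prelp, were at least 3-fold lower, against 9.20% of all genes that were as much lower there and 8.39% that were as much higher. The median log2 ratio of HC to ENSC signal was -3.33 over the members and 0 over all genes. Bgn lay just under the 3-fold line and Fmod was near the floor or barely above it in both cochlear libraries.

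Epyc encodes epiphycan, a class III SLRP first known from epiphyseal cartilage. Its signal was 763.75 in cochlear HCs, 62028.5 in cochlear ENSCs, 210 in vestibular HCs and 1119.25 in vestibular ENSCs. Cochlear ENSCs stood far above the other libraries, and there Epyc ranked 4 of all 12814 genes by signal. The cochlear HC signal was 81.2-fold lower than that of the ENSCs (log2 ratio -6.34), or 1.23% of it.

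Ogn encodes osteoglycin, a class III SLRP of many connective tissues. Its signal was 42.25 in cochlear HCs and 3231.5 in cochlear ENSCs, against 52.25 in vestibular HCs and 2066.75 in vestibular ENSCs. It was thus high in both ENSC libraries and only slightly above the near-floor range in both HC libraries, 76.5-fold lower in cochlear and 39.6-fold lower in vestibular HCs. Ogn lies inside the span of Cenpp without exon overlap, and Cenpp itself had signals of 20, 20, 33.25 and 42.75 in the same libraries.

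Lum encodes lumican, a keratan sulfate SLRP that orders collagen fibrils in the cornea. Its signal was 728.25 in cochlear HCs, 12731.25 in cochlear ENSCs, 30.5 in vestibular HCs and 413.75 in vestibular ENSCs. Dcn, which encodes the collagen- and TGF-beta-binding decorin, had lower signals of 181.5, 1828.25, 30.5 and 250.5 in the same libraries. For both genes the cochlear ENSC library was the highest and the vestibular HC library was near the floor, whereas cochlear HCs exceeded vestibular ENSCs for Lum and not for Dcn. In the cochlea the HC signal was 17.5-fold lower for Lum and 10.1-fold lower for Dcn.

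Prelp encodes a basic heparin-binding SLRP that links basement membranes to collagen, and it was near the floor in both HC libraries, at 23.75 (cochlea) and 29 (vestibular). ENSCs had 155.5 in the cochlea and a higher 481 in the vestibular library, so cochlear HCs were at least 6.41-fold lower. Bgn, encoding the decorin-like biglycan, was likewise near the floor in HCs, at 22 and 25, and low in ENSCs, at 64.5 and 119.75. Its cochlear difference, at least 2.66-fold against the top of the near-floor range and 2.93-fold as deposited, was the nearest below the 3-fold line. Fmod, encoding the collagen-binding fibromodulin, had 23.5, 24.75, 28.75 and 384.75 in cochlear HCs, cochlear ENSCs, vestibular HCs and vestibular ENSCs, so only vestibular ENSCs stood apart from the floor.

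The same question in the vestibular system gave a lower HC signal for all 7 members in the table. All 7 were at least 3-fold lower in HCs than in ENSCs, where 14.3% of all genes were, and none was among the 13.8% at least 3-fold higher. The median log2 ratio was -3.74 over the members and 0 over all genes. Ogn had the largest difference (log2 ratio -5.31), and the bounds were at least 15.8-fold for Prelp, 13.6-fold for Lum, 12.6-fold for Fmod, 8.21-fold for Dcn and 3.93-fold for Bgn. Epyc was 5.33-fold lower (log2 ratio -2.41), with the vestibular HC signal at 18.8% of the ENSC signal. This ratio moved with exonic GC content over all genes (Spearman rho -0.395 over 10358 genes, as a description). With the trends on exonic length and GC content taken out all 7 stayed past 3-fold, while the lower side took 40.3% of all genes past 3-fold instead of 50.9%, and the log2 ratio became -3.22 for Epyc, -6.13 for Ogn, -3.37 for Prelp and -3.0 for Fmod. The part of GC content in these ratios was not tested.

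**Figure D2:**
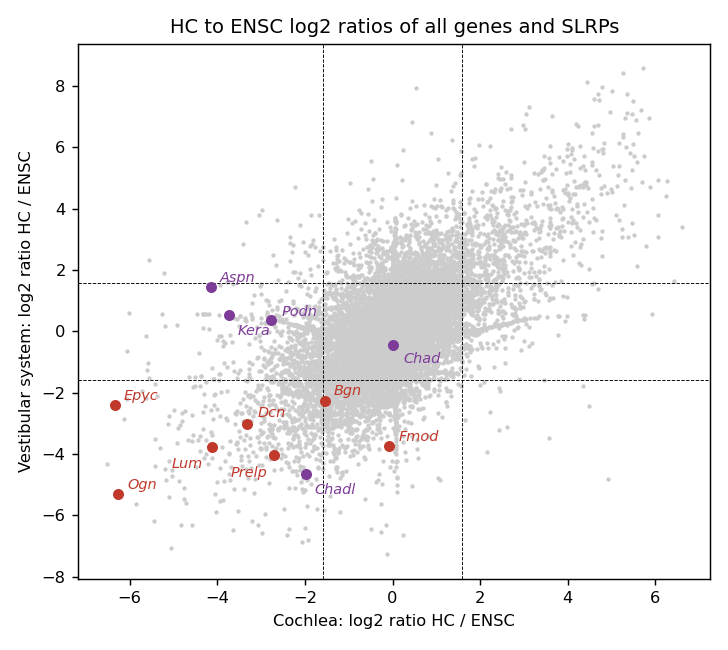
Log2 ratio of HC to ENSC signal in the cochlea (x) and in the vestibular system (y) for all 12814 genes (grey), the 7 members (red) and the 5 other SLRP genes in the table (purple), 1 library per population; dashed lines mark 3-fold. The 7 members lie below 0 in both organs, with Epyc and Ogn farthest left and Fmod near 0 in the cochlea.

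The HC to ENSC log2 ratio of several members differed in size between the organs, a difference that was not tested with 1 library per population. For Epyc the vestibular minus the cochlear ratio was 3.93, and for Fmod it was -3.67. For Ogn it was 0.95. The deposited signals gave 0.37 for Lum, 0.29 for Dcn, -0.71 for Bgn and -1.34 for Prelp, but these and that of Fmod rest on near-floor HC signals, so their ratios are bounds and the size of the difference is not known.

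Between the organs, the ENSC libraries were compared next, to see which members distinguish the nonsensory epithelium of the cochlea from that of the vestibular system. Epyc, Lum and Dcn were at least 3-fold higher in cochlear ENSCs, 3 of the 7 members where 7.80% of all genes were, and Prelp and Fmod were at least 3-fold lower, 2 of the 7 where 7.94% of all genes were. The differences were 55.4-fold for Epyc (log2 ratio 5.79), 30.8-fold for Lum (4.94) and 7.30-fold for Dcn (2.87) towards the cochlea, and 15.5-fold for Fmod and 3.09-fold for Prelp towards the vestibular system. Ogn was 1.56-fold higher and Bgn 1.86-fold lower in cochlear ENSCs, and both stayed under 3-fold. Prelp lay just inside the 3-fold line. The median log2 ratio was 0.64 over the members and 0 over all genes.

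The direction of the ENSC difference was shared by the SLRP genes in the table within each of the chromosome 10, chromosome 1 and chromosome 13 groups. On chromosome 13 the size differed, and Ogn stayed under 3-fold. Dcn, Lum, Kera and Epyc, the 4 SLRP genes of the chromosome 10 group, were all higher in cochlear ENSCs, while Prelp and Fmod of chromosome 1 were both higher in vestibular ENSCs. Kera, which encodes the corneal SLRP keratocan and was not among the members, reached 314.5 in cochlear ENSCs and lay near the floor in the other 3 libraries, at 23.5, 28.75 and 20. The genes flanking the chromosome 10 group, Nudt4, Eea1 and Btg1 on the one side and Atp2b1, Poc1b and Galnt4 on the other, had log2 ratios between -0.84 and 1.24 for cochlear over vestibular ENSCs, and none reached 3-fold. Flanking genes did differ elsewhere. Beside Prelp and Fmod, Zc3h11a (-1.85) and Atp2b4 (-1.86) passed 3-fold towards the vestibular system, as the members did, Snrpe (1.66) and Adora1 (1.87) passed it towards the cochlea, and Btg2 (-1.09) and Tmem183a (0.58) did not pass it. Of the 6 genes flanking Aspn and Ogn, Ippk (-2.14) was past 3-fold. On chromosome 13 Aspn was at least 21.0-fold higher in cochlear ENSCs, and its neighbour Ogn was only 1.56-fold higher there.

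**Figure D3:**
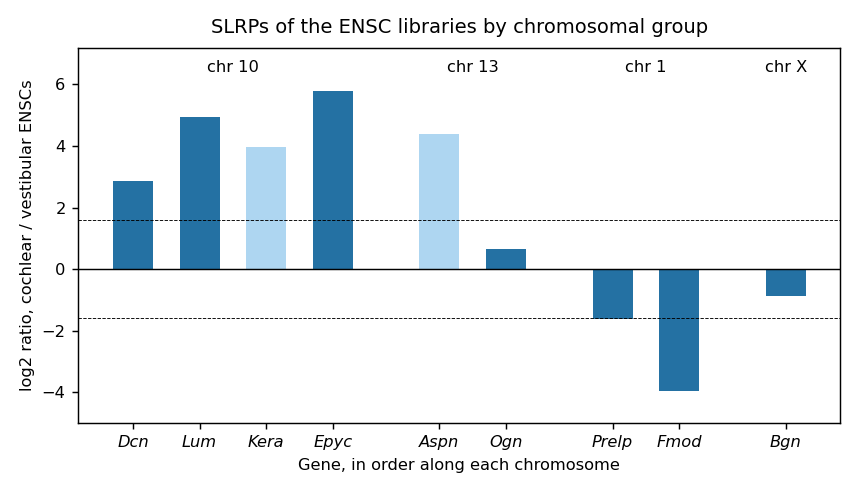
Log2 ratio of cochlear to vestibular ENSC signal for the SLRP genes of each chromosome in their order along it (dark bars, members; light bars, Kera and Aspn), 1 library per organ; dashed lines mark 3-fold. Bars of chromosome 10 point up, from 2.87 for Dcn to 5.79 for Epyc, and those of chromosome 1 point down, to -3.96 for Fmod.

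The GC content of the genes moved with the same ratio. Exonic GC content was 36.5% for Epyc, 36.3% for Ogn, 42.0% for Lum and 43.1% for Dcn, but 51.1% for Bgn, 53.8% for Prelp and 54.1% for Fmod, against a median of 48.8% over all genes with a value. Over 10475 genes the log2 ratio of cochlear to vestibular ENSCs and GC content had a Spearman rho of -0.453, given as a description since the genes share the same libraries. The median log2 ratio was 0.86 over 600 genes with 35% to 40% GC and -0.33 over 2657 genes with 50% to 55%. After the trends on exonic length and GC content were taken out, the ratio was 4.63 for Epyc, 4.31 for Lum, 2.31 for Dcn and -3.49 for Fmod, all still past 3-fold. That of Prelp became -1.19, under 3-fold, and that of Ogn turned from 0.64 to -0.55. Of the 600 genes with 35% to 40% GC, 19.7% passed 3-fold towards the cochlea and 1.0% towards the vestibular system. Of 1489 genes with 55% to 60% GC, the shares were 3.63% and 21.7%. The ENSC counts of the gene lists given below were not corrected for this trend. The part of GC content in the organ difference was not tested.

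**Figure D4:**
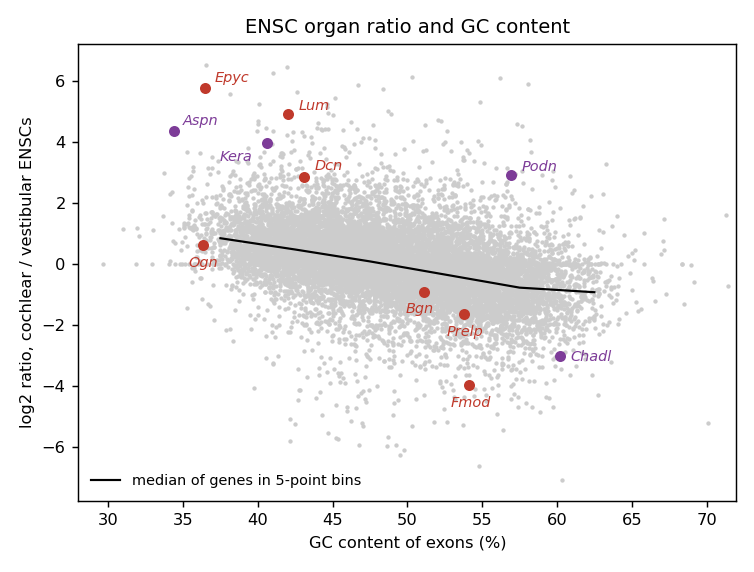
Log2 ratio of cochlear to vestibular ENSC signal against exonic GC content (%) for all genes (grey), the members (red) and the other SLRP genes (purple), with the median of all genes in bins of 5 percentage points (line). Epyc, Lum and Dcn lie above the line and Fmod below it, while Ogn and Bgn lie close to it.

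Among HCs, 3 members exceeded the vestibular library by 3-fold or more in the cochlear one, Epyc (3.64-fold, log2 ratio 1.86), Dcn (at least 5.95-fold) and Lum (at least 23.9-fold), as did 4.21% of all genes. None was among the 5.09% at least 3-fold lower. The median log2 ratio over the members was -0.18, and 0 over all genes. The same 3 genes exceeded 3-fold between the ENSC libraries, and their cochlear HC signals were 1.23% (Epyc), 9.93% (Dcn) and 5.72% (Lum) of the cochlear ENSC signals, beside 1.31% for Ogn. Ogn differed by 1.24-fold between the HC libraries, and Bgn, Prelp and Fmod were near the floor in both.

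Compared per kb of exon, which allows genes to be set beside each other, Epyc led cochlear ENSCs with a signal of 24220 per kb, followed by Lum (6136), Ogn (1272), Dcn (944), Prelp (43.0), Bgn (18.1) and Fmod (7.49). In vestibular ENSCs the order was Ogn (814), Epyc (437), Lum (199), Prelp (133), Dcn (129), Fmod (116) and Bgn (33.6). Epyc took 74.2% of the summed per kb signal of the members in cochlear ENSCs and 23.5% in vestibular ENSCs. With 1 library per population the spread is unknown, and neighbours such as Prelp, Dcn and Fmod in vestibular ENSCs cannot be ranked. In cochlear HCs the members above the near-floor range were Lum (351 per kb), Epyc (298), Dcn (93.7) and Ogn (16.6), and in vestibular HCs only Epyc (82.0) and Ogn (20.6). Summed without length scaling, the 7 members made up 1.02% of all signal in cochlear ENSCs, 0.0618% in vestibular ENSCs, and, among HCs, 0.0228% in the cochlear and 0.00518% in the vestibular library.

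Of 10 further SLRP family genes listed, 5 were in the table. Aspn, which encodes the calcium-binding asporin, reached 419.5 in cochlear ENSCs, with 54 in vestibular HCs, 23.75 in cochlear HCs and 20 in vestibular ENSCs. Podn (podocan) was also seen above the near-floor range in cochlear ENSCs alone, at 153. Chadl (chondroadherin-like), in contrast, had 756 in vestibular ENSCs and 94.5 in cochlear ENSCs and was near the floor in HCs, and Chad (chondroadherin) had 27.5 in vestibular ENSCs and 20 elsewhere. In the cochlea 4 of these 5 were at least 3-fold lower in HCs (median log2 ratio -2.78; 9.20% of all genes), and in the vestibular system 1 of 5 was (median 0.38; 14.3% of all genes). The vestibular median is the ratio of Podn, near the floor in both libraries at 26 and 20. Of the 5 genes, 4 were near the floor in vestibular HCs and 3 in vestibular ENSCs.

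The genes whose profile over the 4 libraries lay nearest to each member were sought in a pool of 6727 protein-coding genes that reached 200 in any library, by the Euclidean distance of centred log2 signals. Nearest to Epyc were Scg2 (1.07), Matn1 (1.34), which encodes the cartilage protein matrilin-1, and Rspo2 (1.63), a Wnt pathway agonist. Lum had Epyc (2.06), Igf2 (2.17) and Dcn (2.18) nearest, and Dcn had Gng2 (0.71), Stc1 (0.77) and Slitrk4 (0.85). Nearest to Ogn were Lmx1a (0.88), a transcription factor gene of nonsensory otic epithelium, Gucy2f (0.88) and Cldn11 (0.93). For Bgn they were Plat (0.08), Neo1 (0.10) and Aldh7a1 (0.10), for Prelp Gprc5c (0.11), Tuba1c (0.11) and Zfp36 (0.12), and for Fmod Pyy (0.16), Mki67 (0.19) and Sox8 (0.25). Near-floor signals enter the profiles of Dcn, Lum, Bgn, Prelp and Fmod and those of Scg2, Matn1, Rspo2, Lmx1a, Gucy2f, Slitrk4, Igf2, Gprc5c, Pyy, Mki67 and Sox8, and a likeness over 4 libraries is a description only.

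Most genes of the collagens on which SLRPs act were at least 3-fold lower in HCs as well. Of 13 fibrillar and fibril-associated collagen genes in the table, 9 were lower by 3-fold or more in cochlear HCs (median log2 ratio -2.45) and 11 in vestibular HCs (-3.62). Of all genes 9.20% and 14.3% were as much lower. None of the 13 was 3-fold higher, where 8.39% and 13.8% of all genes were. Col1a2, a chain of type I collagen, was at 46.25 in cochlear HCs and 1618 in cochlear ENSCs, and Col11a1, of cartilage fibrils, had 1459.5 and 20412.75. In the vestibular system Col2a1, the main cartilage collagen, had 399.75 in HCs and 22404.75 in ENSCs, and Col14a1, a fibril-associated collagen, had 70.5 and 6231.5. Cochlear ENSCs were 4.12-fold lower than vestibular ENSCs in Col2a1 and 21.8-fold lower in Col14a1, but 3.65-fold higher in Col1a2 and 1.86-fold higher in Col11a1. Between the ENSC libraries, 1 of the 13 collagen genes passed 3-fold towards the cochlea and 4 towards the vestibular system, with a median log2 ratio of -1.18. Of all genes 7.80% and 7.94% did, and the collagen counts were not corrected for GC content.

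Of 22 other proteoglycan genes, 8 were lower by 3-fold or more and 4 higher in cochlear HCs, and 13 lower and 1 higher in vestibular HCs, with medians of -1.05 and -2.14. Over all genes 9.20% were as much lower and 8.39% higher in cochlear HCs, and 14.3% and 13.8% in vestibular HCs. Gpc3, encoding the cell-surface glypican-3, was 43.1-fold lower in cochlear and 21.2-fold lower in vestibular HCs. Hspg2, encoding the basement membrane proteoglycan perlecan, had 2951.25 in vestibular ENSCs, and the HC signal was lower by at least 96.8-fold. Between the ENSC libraries 2 of the 22 passed 3-fold on the cochlear side and 10 on the vestibular side. Of all genes 7.80% and 7.94% did, and the proteoglycan counts were not corrected for GC content.

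For the enzymes that build SLRP side chains, the counts between HCs and ENSCs were small and went both ways, and they stand beside 9.20% of all genes lower and 8.39% higher in cochlear HCs and 14.3% and 13.8% in vestibular HCs. Of 17 genes for the linker and for chondroitin or dermatan sulfate, 2 were lower by 3-fold or more and 2 higher in cochlear HCs (median -0.25), and 2 lower and 3 higher in vestibular HCs (-0.17). Chst15, a chondroitin sulfotransferase gene, had 133.5 in HCs and 1335.25 in ENSCs of the cochlea, whereas Ust, which encodes a uronyl sulfotransferase, was 3.28-fold higher in cochlear and 11.1-fold higher in vestibular HCs. Of 6 keratan sulfate genes none passed 3-fold in the cochlea and 1 was lower in vestibular HCs, B3gnt7, with 27.25 in HCs and 208.75 in ENSCs. Between the ENSC libraries, 5 of the 17 genes passed 3-fold towards the cochlea and none towards the vestibular system (median 0.99). Of the 6 keratan sulfate genes, 2 passed it towards the vestibular system and none towards the cochlea (-0.41). Over all genes 7.80% passed it towards the cochlea and 7.94% towards the vestibular system. The enzyme counts were not corrected for GC content.

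Of 8 genes for proteases and enhancers that process SLRPs and collagens, 2 were lower by 3-fold or more in cochlear HCs and none higher (median -1.19), and 5 were lower and 1 higher in vestibular HCs. These counts and those of ligands and receptors stand beside 9.20% of all genes lower and 8.39% higher in cochlear HCs. In vestibular HCs the shares of all genes were 14.3% and 13.8%. Mmp2, a matrix metalloproteinase gene, was 14.2-fold lower in cochlear and 19.0-fold lower in vestibular HCs. Bmp1, whose product trims the propeptides of biglycan, osteoglycin and procollagens, was lower by at least 12.3-fold in vestibular HCs, whereas its relative Tll1 was 12.6-fold higher there. Of 10 ligand and receptor genes, 4 were lower in cochlear and 5 in vestibular HCs (medians -1.42 and -1.58). They include Met, a receptor bound by decorin, with 23.75 in cochlear HCs and 466 in cochlear ENSCs, and Tgfb2, encoding a TGF-beta ligand, with 5132.5 and 14397.75, under 3-fold.

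**Figure D5:**
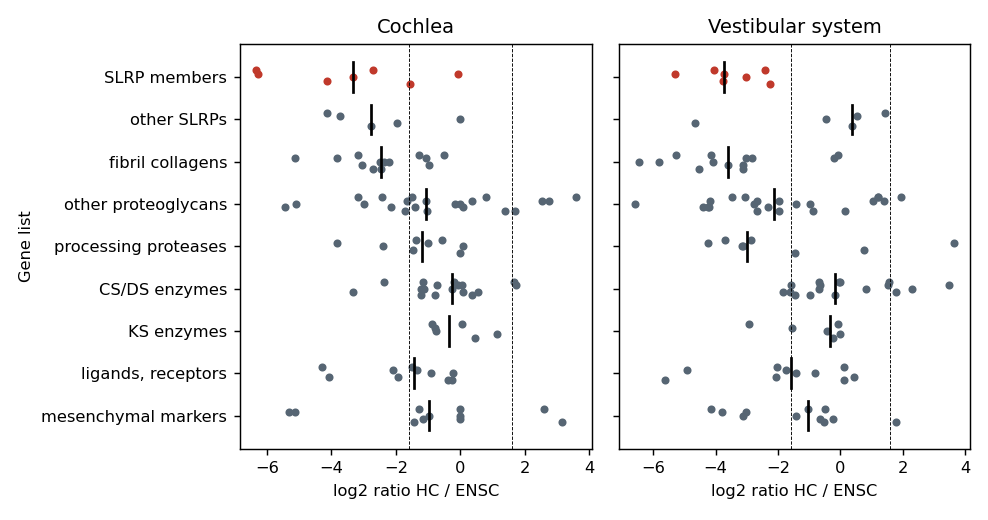
Log2 ratio of HC to ENSC signal in the cochlea (left) and the vestibular system (right), 1 point per gene and 1 library per population, for the SLRP members (red) and 8 gene lists (CS/DS, chondroitin or dermatan sulfate; KS, keratan sulfate); vertical bars are medians and dashed lines mark 3-fold. The members and the fibril collagens lie mostly to the left of 0 in both organs, with medians of -3.33 and -2.45 in the cochlea, while the sulfate chain enzymes centre near 0.

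SLRPs are also made by mesenchyme and cartilage, and although the CD326 gate should keep out cells without this protein, markers of other cell types were read beside the members. Cells negative for CD326 were not analysed here. The marker counts below stand beside 9.20% of all genes at least 3-fold lower and 8.39% higher in cochlear HCs. In vestibular HCs these shares were 14.3% and 13.8%. Of 20 mesenchymal markers 11 were in the table, with 2 lower and 2 higher by 3-fold or more in cochlear HCs and 4 lower and 1 higher in vestibular HCs. Their summed signal was 3885 in cochlear HCs, 3448 in cochlear ENSCs, 471 in vestibular HCs and 2195.75 in vestibular ENSCs, and 7, 3, 7 and 0 of the 11 were near the floor in these libraries. Lox, which encodes a collagen cross-linking enzyme, made up most of the cochlear HC sum, with 3178 in cochlear HCs and 532.75 in cochlear ENSCs. Without Lox, which was singled out after its values were seen, the cochlear sums were 707 (HCs) and 2915.25 (ENSCs) and the vestibular sums 439.25 and 2130.5, so the direction of the cochlear sum depends on this gene. By signal, 6 of the 11 were higher in ENSCs and 2 in HCs of the cochlea, and 10 were higher in ENSCs and 1 in HCs of the vestibular system. Of the transcription factor genes in the list, Prrx1 and Zeb2 were at 20 in 3 libraries, with 31.25 and 28.25 in vestibular ENSCs. Foxc1 had 27.25 in HCs and 61.5 in ENSCs of the cochlea and 20 and 23.75 in those of the vestibular system, and Tbx18 had 54.75 in vestibular ENSCs and at most 20.5 elsewhere. Pdgfra was higher in HCs than in ENSCs in both organs. Postn and Col1a2, in contrast, were lower in HCs, with 962.25 and 1618 in cochlear ENSCs and 413.5 and 443.25 in vestibular ENSCs. Of 12 cartilage and bone markers 5 were in the table, 3 of them lower by 3-fold or more in cochlear HCs and 2 in vestibular HCs. Between ENSCs 1 of the 5 passed 3-fold towards the cochlea and 2 towards the vestibular system, beside 7.80% and 7.94% of all genes. Matn1 had 3298.5 in cochlear ENSCs but at most 49.25 in the other libraries, whereas ENSCs of the cochlea and the vestibular system had 5935.25 and 6452.5 for Lect1, 5438.75 and 22404.75 for Col2a1 and 96.5 and 1010.75 for Spp1. All 11 epithelial markers were in the table, 8 lower by 3-fold or more in cochlear HCs and 10 in vestibular HCs. Of 14 supporting and nonsensory epithelium markers, 7 were lower in cochlear HCs, and 5 were lower and 1 higher in vestibular HCs. Endothelial and blood markers (2 of 12 in the table) held Kdr, at 1461.75 in vestibular ENSCs and at most 29.75 elsewhere, and of 7 glial, neuronal and melanocyte markers 4 were lower and 2 higher in cochlear HCs, and 3 lower and 2 higher in vestibular HCs. The part of these other cell types in the SLRP signals was not tested.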

How the data were processed

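Sequencing libraries came from total RNA of the 4 sorted populations after NuGEN Ovation amplification; the labels give polyA RNA as the molecule. As described by the authors, the first 50 bases of each read were aligned to mm9 with TopHat, reads were counted per ENSEMBL gene with HTSeq, and the counts were quantile-normalized with a floor of 20. Tool versions and strand handling are not given in the sources used here. The deposited values are therefore a signal, not counts, with 1 column per population. All 51256 values were multiples of 0.25, and the 4 columns held identical sorted values, so depth is unknown and no interval or test was computed.

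Log2 ratios were taken from the deposited signal without a pseudocount, and genes at least 3-fold apart were counted. The members and the 14 gene lists were chosen with earlier results of these data known. From each list the text drew on the 3 genes with the largest absolute log2 ratio in each organ among those with a signal of at least 200, with other list members given by count. Exceptions named after their values were seen are the mesenchymal markers Prrx1, Zeb2, Foxc1, Tbx18 and Lox, and Gpc5, Spock1, Epcam, Cenpp and the genes flanking the SLRP groups. All other SLRP genes in the table were named whatever their signal. In 12799 of 12814 genes the identifier matched the mm9 annotation, which gave positions, exonic lengths and GC content. Length and GC trends were removed by lowess (span 0.3). Python 3.11.15, numpy 2.4.6, pandas 2.3.3 and statsmodels 0.14.6 were used, and the calculation was tested on simulated data. Other floors, pseudocounts, thresholds, centring and filters were tried as alternatives.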

Additional observations from a re-analysis of the deposited data

Results flagged for a closer look

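Among the members and the genes of the 14 lists, 7 had HC to ENSC ratios on opposite sides of 0 that were at least 2-fold in each organ, each from 1 library per population, so the difference was not tested. For Aspn the log2 ratio was -4.14 for the cochlea and 1.43 for the vestibular system, a difference of 5.58, with near-floor signals in cochlear HCs and vestibular ENSCs. With the length and GC trends taken out, the Aspn ratios were -4.01 and 0.5, and the vestibular one was under 2-fold. For Tll1, which encodes a tolloid-like protease, the log2 ratio was -1.02 and 3.65, a difference of 4.67. Chsy1, a chondroitin synthase gene, had -1.23 and 2.30, a difference of 3.53. Vcan, which encodes the large proteoglycan versican, went the other way, with 3.57 and -3.49, a difference of -7.06, and so did Lox, with 2.58 and -1.04 (-3.62). The proteoglycan genes Gpc5 (-3.17 and 1.19) and Spock1 (-1.49 and 1.22) differed by 4.36 and 2.71, with Gpc5 near the floor in cochlear HCs.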

How the results depend on the processing

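The members were recounted under 10 alternatives. No log2 ratio of a member past 3-fold changed sign: of 280 recomputed values 263 kept their side of the threshold, 16 fell under it and 1 rose past it. Among ratios under 3-fold, 10 came to 0, and 2 turned sign with length and GC content corrected, Ogn between ENSCs (0.64 to -0.55) and Fmod in the cochlea (-0.07 to 0.01). Members past the threshold, which was 2-fold, 3-fold or 5-fold, numbered 4 to 6 in cochlear HCs against ENSCs, where 3.17% to 17.4% of all genes were as much lower, 5 to 7 in the vestibular system, where 5.7% to 24.5% were, and 4 to 5 between ENSCs, where 2.33% to 17.3% of all genes were as much higher and 2.82% to 17.3% lower. Between the HC libraries the count was 1 instead of 3 with a pseudocount of 100, which shrinks low signals by construction and left 0.897% of all genes instead of 4.21%, and 2 with a floor of 100 or a 5-fold threshold. With length and GC content corrected, Prelp dropped out between ENSCs, leaving 3 members higher and 1 lower in the cochlea instead of 3 and 2; it also dropped out with a pseudocount of 20 (-1.51) or 100 (-1.19) and at 5-fold. No paired analysis was possible because each population has 1 column and so no replicates to pair; the organs were compared, not taken as replicates, and no column could be left out. With a floor or pseudocount of 100, Bgn, Dcn and Prelp each fell under 3-fold in at least 1 comparison, as did Epyc between HCs with the pseudocount (1.86 to 1.48).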
